A study of Homo sapiens with 6 samples.

Results

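The TNF superfamily joins ligands such as TNF and TRAIL to receptors that carry cysteine-rich repeats outside the cell. Its expression was compared between JJ012, a line from a human chondrosarcoma, and C28, the control, a line of human chondrocytes. The members described are 10 genes, namely the receptor genes TNFRSF1A, TNFRSF1B, TNFRSF9, TNFRSF10A, TNFRSF10D, TNFRSF12A, TNFRSF19 and TNFRSF21 and the ligand genes TNFSF9 and TNFSF10. They were chosen by gene symbol and are 10 of 20046 genes named on the array, read by 13 of 47231 probes. A probe counted as measured when all 3 arrays of either line gave it a detection value above 0.99, which held for 9 of the 13 probes and 9 of the 10 genes. The gene without a measured probe was TNFSF10.

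Both groups were untreated as far as the labels say, with 3 arrays of JJ012 and 3 of C28. In both, 5000000 cells were seeded and kept for 24 h before RNA was taken. Each group is a single cell line, so a difference is one between these lines. Nothing in the labels says whether replicates were grown separately. The p-values therefore rest on array-to-array spread, which could be technical, and 3 arrays a line limit the precision. In bulk RNA, fewer cells that use a gene and less of its RNA in each cell cannot be told apart.

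Ligands of this superfamily act as trimers on the cell surface or after release. Some receptors, such as TNFRSF1A, TNFRSF10A and TNFRSF21, carry a death domain inside the cell and can start a caspase cascade through adaptors such as TRADD and FADD. Others, such as TNFRSF1B, TNFRSF9, TNFRSF12A and TNFRSF19, bind TRAF proteins and signal to NF-kB and JNK, while decoy receptors such as TNFRSF10D bind ligand without passing on a death signal. In cartilage, TNF is known to raise the genes of matrix-degrading enzymes and inflammatory mediators.

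Promoter windows of 4 members are shown because these genes include the ligand called higher, the ligand not detected, the receptor of the first ligand and the receptor with the largest fitted fall. Each window covers 250 bases before to 50 bases after the gene's start, from RefSeq on build GRCh38.p14, in the direction of transcription. Capitals mark the TATA box (TATAAA) and the NF-kB consensus (kappaB consensus, GGGRNNYYCC). In the latter R stands for A or G, Y for C or T and N for any base. Each motif was searched on both strands and at any position of the window.
TNFSF9 (chr19:6530776-6531075, + strand): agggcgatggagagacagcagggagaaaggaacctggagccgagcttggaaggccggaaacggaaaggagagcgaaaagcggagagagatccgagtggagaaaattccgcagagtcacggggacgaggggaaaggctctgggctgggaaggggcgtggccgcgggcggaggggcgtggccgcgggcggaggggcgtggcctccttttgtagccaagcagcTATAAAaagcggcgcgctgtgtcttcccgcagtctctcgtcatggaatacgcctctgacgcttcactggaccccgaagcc
TNFSF10 (chr3:172523381-172523680, − strand): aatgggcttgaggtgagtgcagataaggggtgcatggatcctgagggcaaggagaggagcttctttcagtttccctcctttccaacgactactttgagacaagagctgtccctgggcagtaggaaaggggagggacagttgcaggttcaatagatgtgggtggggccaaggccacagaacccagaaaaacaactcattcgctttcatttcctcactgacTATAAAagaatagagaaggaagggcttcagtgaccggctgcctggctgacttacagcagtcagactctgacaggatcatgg
TNFRSF9 (chr1:7940790-7941089, − strand): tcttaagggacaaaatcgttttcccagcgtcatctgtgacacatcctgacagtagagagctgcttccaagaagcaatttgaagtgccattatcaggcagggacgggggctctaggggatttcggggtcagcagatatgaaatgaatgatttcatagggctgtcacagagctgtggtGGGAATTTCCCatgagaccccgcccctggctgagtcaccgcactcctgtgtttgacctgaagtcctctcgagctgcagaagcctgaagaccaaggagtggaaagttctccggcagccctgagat
TNFRSF19 (chr13:23570162-23570461, + strand): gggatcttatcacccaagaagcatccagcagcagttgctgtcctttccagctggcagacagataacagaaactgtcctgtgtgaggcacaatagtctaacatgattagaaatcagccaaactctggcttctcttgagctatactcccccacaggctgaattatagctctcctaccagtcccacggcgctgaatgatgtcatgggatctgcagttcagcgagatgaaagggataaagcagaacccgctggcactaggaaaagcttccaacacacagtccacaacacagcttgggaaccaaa

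The TATA box begins 30 bases before the start in TNFSF9 and 31 bases before it in TNFSF10. In TNFRSF9 the kappaB consensus matches at overlapping positions, 74 and 73 bases before the start, which makes 1 run. The window of TNFRSF19 holds neither motif. Windows were found for 7 of the 10 members and for 30 genes of the superfamily. A TATA box stood in 2 of the 7 and in 4 of the 30, against 11.5% of 35116 promoter windows of the same length, and a kappaB consensus in 1 of the 7 and 5 of the 30, against 11.3%. Matches counted anywhere in the window, and the TATA match of TNFRSF18 began 250 bases before the start. A match describes letters only and was not tied to any factor.

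Arrays were checked before the members were compared. Between 17826 and 18378 of 47231 probes were detected on the JJ012 arrays and between 18922 and 19332 on the C28 arrays. The JJ012 arrays differed over 57 probes that were bright in C28 and chosen for being off on replicate 2 of JJ012. As a share of their C28 mean, JJ012 replicates 1, 2 and 3 gave medians of 10.5%, 0.624% and 2.32%. The choice took a linear C28 mean above 1000 with detection on every C28 array. The detection value on JJ012 replicate 2 had to be at most 0.95. No member probe was among the 57, which does not show that members lack such a share. In the other direction the C28 arrays read between 0.59% and 0.779% of the JJ012 mean over probes that were off on the other C28 arrays. Of 8 chondrocyte marker genes only SOX9 was measured, at 8.09 ± 0.23 in JJ012 and 8.62 ± 0.18 in C28 (log2 signal, SD, n = 3 each). ACAN, COMP, MATN1, COL9A1 and HAPLN1 were not detected on any array, so the cartilage label of both lines has little marker signal behind it here. COL2A1 was detected on 1 C28 array and COL11A1 on 2 JJ012 arrays, and the summed linear signal of the 8 ran from 449 to 498 in JJ012 and from 504 to 598 in C28.

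Signals are given below on the log2 scale after background correction and quantile normalization, where the lowest detected probe read between 5.63 and 5.73 on the JJ012 arrays and between 5.46 and 5.52 on the C28 arrays. Differences are JJ012 minus C28, from limma with Benjamini-Hochberg adjustment over all 19384 measured probes. Calls needed both an adjusted p below 0.05 and a difference of 2-fold or more. Where no array of a line detected a probe, its fitted difference is no estimate of size. A bound is then given as at least N-fold, which sets the mean of the detecting line against the lowest detected signal of each array of the other line, or the probe's own signal if higher. Signals of different probes are not comparable with each other.

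Of the 9 measured members, 1 was called higher in JJ012 (TNFSF9), 4 were called lower (TNFRSF19, TNFRSF10A, TNFRSF10D and TNFRSF1B) and 4 were not called. Over all 11515 genes measured, 13.7% were called higher and 17.6% lower. At the level of probes the counts were the same by construction, because each measured member had 1 measured probe, against 13.9% and 15.9% of all measured probes. The measured members were not a neutral sample. Of the 9, 5 passed detection through C28 alone and 1 through JJ012 alone, a route that favours genes that differ, and the 3 detected on all 6 arrays (TNFRSF1A, TNFRSF12A and TNFRSF21) held no call. All 3 had an unadjusted p under 0.05 with limma, and none reached 2-fold. Among all genes detected on all 6 arrays 21.9% were called. The lines did not overlap in any of the 9, which was also so for 76.2% of all genes. All 9 passed an adjusted p of 0.05 with no minimum fold, as did 71.9% of all genes. Detection on the C28 arrays and on no JJ012 array held for 4 of the 9, against 7.02% of all genes, and was part of how those 4 came to be measured. The median fitted difference of the 9 was −0.91, or −0.16 with undetected genes at their bounds, against −0.04 over all genes.

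**Figure D1:**
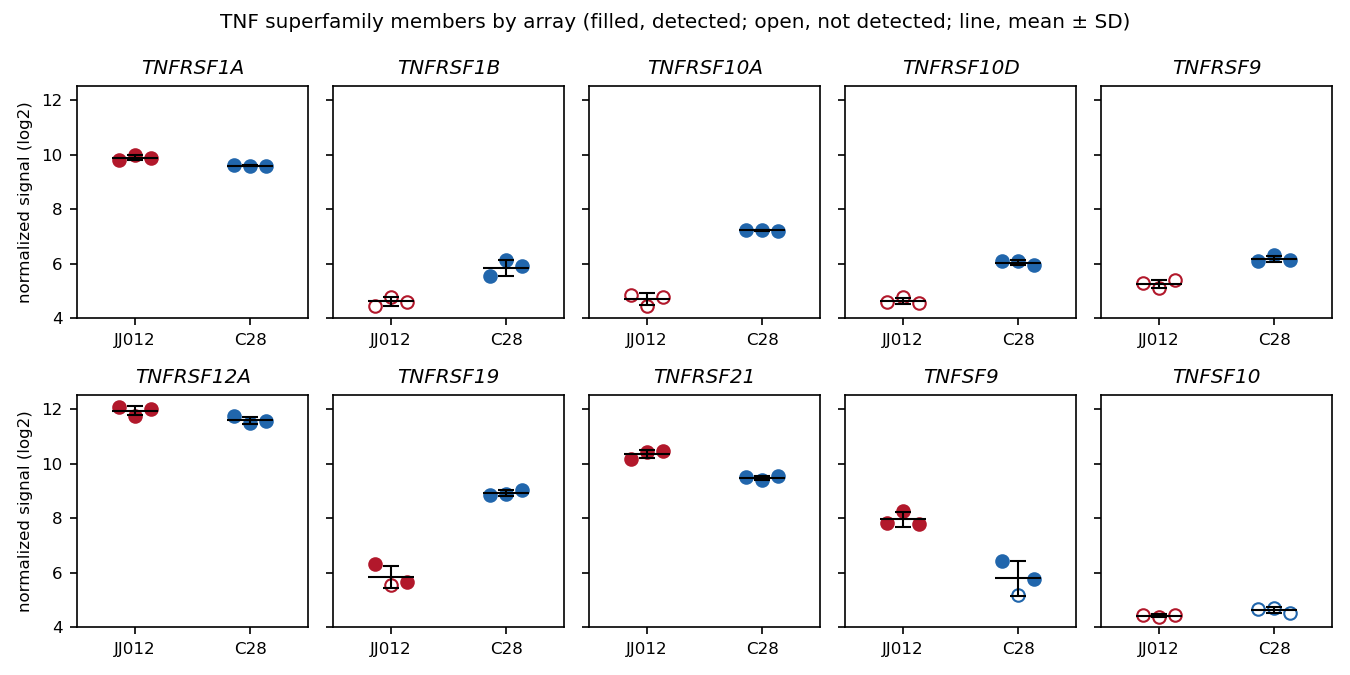
Normalized log2 signal of the 10 members on each array, with JJ012 on the left and C28 on the right of each panel, filled points for detected and open points for undetected probes, and a line with bars for the mean ± SD of 3 arrays. For TNFRSF19 the measured probe is drawn, and TNFSF10 is open on all 6 arrays.

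TNFSF9, the ligand that costimulates T cells through TNFRSF9, was the member called higher in JJ012. It read 7.83, 8.25 and 7.77 on the JJ012 arrays, against 6.44, 5.17 and 5.75 on the C28 arrays. All JJ012 arrays lay above all C28 arrays, and the C28 arrays were spread more widely, with a detection value of 0.969 on C28 replicate 2, just under the limit. The means were 7.95 ± 0.26 in JJ012 and 5.79 ± 0.64 in C28 (SD, n = 3 each), a difference of 2.16 (SE 0.30, adjusted p = 0.000276) or 4.48-fold. Leaving out 1 array at a time kept the difference between 1.85 and 2.49. Without background correction it was 1.38.

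TNFRSF9, the receptor of that ligand, ran the other way without a call. Its probe read 5.28, 5.10 and 5.41 on the JJ012 arrays, none of which detected it, against 6.08, 6.30 and 6.14 on the C28 arrays, all of which did. The fitted difference of −0.91 (95% interval −1.18 to −0.64, adjusted p = 0.000188) missed 2-fold, and the bound was at least 1.39-fold lower. The call was gained with median scaling (−1.01), after subtracting from each JJ012 array the C28 signal times that array's median share over the 57 probes (−1.01) and when JJ012 was represented by its replicate 2 only (−1.07). In deposited intensity, JJ012 gave 92.1, 86.5 and 106.9, against 148.3, 141.6 and 140.3 in C28, where the median over all probes of an array was 84.4 to 95.6 in JJ012 and 90.8 to 101.6 in C28.

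TNFSF10 encodes TRAIL, the ligand of the TNFRSF10 receptors. Its single probe gave intensities of 62.1, 55.7 and 68.6 on the JJ012 arrays, against 86.9, 79.6 and 74.7 on the C28 arrays. No array detected it, and the highest detection value was 0.684, on C28 replicate 2. Its difference was therefore not detectable on these arrays.

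All 3 measured genes of the TNFRSF10 group of TRAIL receptors, TNFRSF10A, TNFRSF10D and TNFRSF10B, were called lower in JJ012, against 17.6% of all genes. TNFRSF10A and TNFRSF10D passed detection through C28 alone, a route that favours a lower call. TNFRSF10A, which carries a death domain, read 4.86, 4.45 and 4.78 on the JJ012 arrays, against 7.23, 7.22 and 7.20 on the C28 arrays. Every C28 array detected it and no JJ012 array did, and the gap between the lines was wider than the spread within either. TNFRSF10A was at least 2.88-fold lower (adjusted p = 1.51e-06), with a fitted difference of −2.52 that became −1.42 without background correction. TNFRSF10D, a decoy receptor for TRAIL, read 4.58, 4.77 and 4.56 on the JJ012 arrays, against 6.09, 6.08 and 5.94 on the C28 arrays. It was likewise detected on the C28 arrays alone and was at least 1.27-fold lower (adjusted p = 9.53e-06). Its fitted difference of −1.40 became −0.72, without the call, when background correction was left out or the authors' normalized values were used.

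TNFRSF10B, the other death-domain receptor of TRAIL, was detected on all 6 arrays. It read 9.56, 8.96 and 9.10 in JJ012, against 10.24, 10.31 and 10.21 in C28, a difference of −1.05 (SE 0.16, adjusted p = 0.000466). This lies close to the 2-fold limit, and the call was lost under 5 of 18 alternatives, among them leaving out JJ012 replicate 2 (−0.93) or JJ012 replicate 3 (−0.99). A second probe of TNFRSF10B, off in JJ012, was at least 1.31-fold lower without a call. TNFRSF10C, a further decoy, was not detected on any array. These receptors are paralogs, and whether their probes read one another was not tested.

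The 4 TNFRSF10 genes follow each other on chromosome 8 in the RefSeq gene order, and the genes beside them were read for comparison. Of 10 protein-coding neighbours, 5 on each side, 7 were measured. None was called, and their differences ran from −0.01 for ENTPD4 to 0.82 for CHMP7, with a median of 0.41. CHMP7 directly follows TNFRSF10A and RHOBTB2, at 0.49, directly precedes TNFRSF10B. The neighbours were looked at after the members' values were known.

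**Figure D2:**
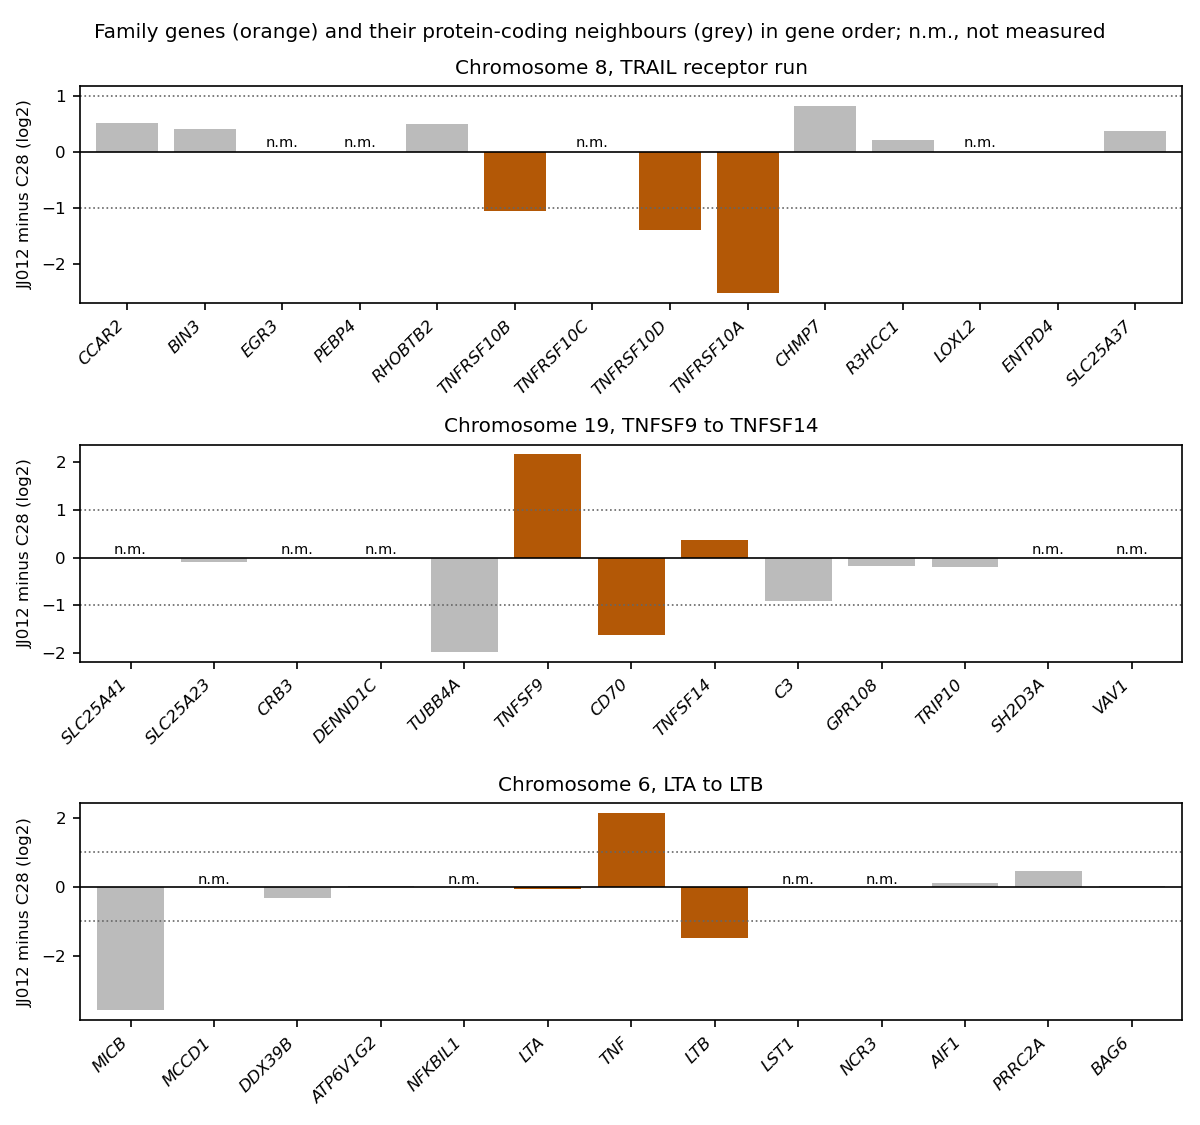
Difference of JJ012 minus C28 (log2) for 3 runs of superfamily genes (orange) and their 5 protein-coding neighbours on each side (grey), in gene order, with dotted lines at 2-fold and n.m. for genes not measured. TNFRSF10B, TNFRSF10D and TNFRSF10A lie below 0 between neighbours at −0.01 to 0.82, and TNFSF9 at 2.16 stands beside CD70 at −1.62. TNFRSF10A, TNFRSF10D, TNF, LTB and C3 were each off on every array of 1 line, so the heights of their bars are no estimate of size.

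TNFRSF1A and TNFRSF1B, the receptors of TNF, differed from each other in pattern. TNFRSF1A, the widely expressed death-domain receptor, read 9.81, 9.99 and 9.87 on the JJ012 arrays, against 9.63, 9.58 and 9.58 on the C28 arrays. The JJ012 arrays were all above the C28 arrays by a small step of 0.29 (95% interval 0.08 to 0.51, adjusted p = 0.0223), 1.23-fold and not called. With median scaling, which moved the median difference of all genes to −0.23, it was 0.09 (adjusted p = 0.52), and the adjusted p ran from 0.012 to 0.52 over all alternatives. TNFRSF1B, found mainly on immune and endothelial cells, read 4.46, 4.79 and 4.60 on the JJ012 arrays, against 5.53, 6.12 and 5.90 on the C28 arrays. No JJ012 array detected it, and the lowest C28 detection value was 0.994, just inside the limit. Its fitted difference of −1.24 (SE 0.16, adjusted p = 0.000231) was called, yet the bound was only at least 1.12-fold lower, and without background correction it was −0.67 without a call.

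TNFRSF19 had the largest fitted fall among the members. The receptor, also known as TROY, is best known from the nervous system, hair follicles and progenitor cells. Its measured probe read 6.31, 5.53 and 5.67 on the JJ012 arrays, of which replicates 1 and 3 detected it, against 8.86, 8.88 and 9.04 on the C28 arrays. The means were 5.84 ± 0.42 in JJ012 and 8.93 ± 0.10 in C28 (SD, n = 3 each), a difference of −3.09 (SE 0.20, adjusted p = 4.58e-06) or 8.51-fold lower.

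Set against the C28 mean, TNFRSF19 stood at 13.5%, 6.44% and 7.38% on JJ012 replicates 1, 2 and 3, so that JJ012 replicate 1, the highest of the 3 over the 57 probes, was also the highest here. Without JJ012 replicate 1 the difference was −3.33. With that share of the C28 signal subtracted from each JJ012 array it was −3.71, and without background correction −2.19. The other 3 probes of TNFRSF19 were not detected on any array, with mean signals between 4.43 and 4.53 in JJ012 and between 4.45 and 4.51 in C28. The platform annotation assigns those 3 to a different transcript from the measured probe. The fall is therefore that of 1 probe.

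TNFRSF12A and TNFRSF21 were well detected in both lines. TNFRSF12A, the receptor of the ligand TWEAK, read 12.09, 11.74 and 12.00 on the JJ012 arrays, against 11.73, 11.48 and 11.56 on the C28 arrays. The lowest JJ012 array and the highest C28 array were almost level. The difference was 0.36 (95% interval 0.07 to 0.64, adjusted p = 0.0321), not called, and the adjusted p ran from 0.00943 to 0.382 over the alternatives, with 0.332 under median scaling.

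TNFRSF21, a death-domain receptor also called DR6 and known from neurons and immune cells, read 10.17, 10.43 and 10.46 on the JJ012 arrays, against 9.51, 9.39 and 9.53 on the C28 arrays. The lines were clearly apart. The difference of 0.88 (SE 0.11, adjusted p = 0.000176), 1.84-fold, stayed under the 2-fold limit and ranged from 0.83 to 0.97 as arrays were left out in turn.

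Other genes of the superfamily were taken from lists of its receptors and ligands. Of 46 superfamily genes with a probe, 23 were measured, and 3 of these were called higher, 9 lower and 11 not called, against 13.7% higher and 17.6% lower over all genes. The 22 others outside the member list were not detected on any array, FAS, the receptor of FAS ligand, and TNFSF11, the RANK ligand gene, among them. Of the 23 measured genes, 5 members, 1 other receptor and 1 other ligand passed detection through C28 alone, a route that favours lower calls. In each group 1 passed through JJ012 alone. Detected on all 6 arrays were 3 members, 4 other receptors and 6 other ligands. Of these, the members held no call, the receptors 1 higher and 2 lower, and the ligands 0 higher and 1 lower. Among all such genes 21.9% were called. Of 21 other receptor genes 6 were measured, with 1 called higher and 3 lower, which is 66.7% called against 31.3% of all genes. TNFRSF11B, which encodes the RANKL and TRAIL decoy osteoprotegerin, read 6.06, 5.04 and 5.24 on the JJ012 arrays, against 8.64, 8.79 and 8.62 on the C28 arrays. This was a difference of −3.24 (SE 0.24, adjusted p = 9.54e-06), with 1 of 3 JJ012 arrays detecting it, replicate 1, at 12.8% of the C28 mean. It was −2.16 without background correction and −3.88 with the share of C28 signal subtracted. Without JJ012 replicate 1 TNFRSF11B was at least 8.03-fold lower.

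CD40, the receptor that answers T-cell help, fell to 7.29 ± 0.08 in JJ012, against 9.09 ± 0.15 in C28 (SD, n = 3 each), a difference of −1.80 (adjusted p = 3.91e-06), and its second probe, off in JJ012, was at least 2.64-fold lower. LTBR, the lymphotoxin-beta receptor, rose by 1.12 (SE 0.13, adjusted p = 0.000129), or by 0.93 and without the call under median scaling. TNFRSF14, the receptor of LIGHT, had a difference of 0.64 and the orphan receptor RELT, off in C28, a fitted one of 0.60, both without a call.

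Of 15 other ligand genes 8 were measured, with 1 called higher and 2 lower, which is 37.5% called against 31.3% of all genes. TNF itself read 7.02, 6.37 and 7.21 on the JJ012 arrays, against 4.64, 4.55 and 5.00 on the C28 arrays, none of which detected it. TNF was at least 2.61-fold higher in JJ012 (adjusted p = 6.08e-05), and 3.90% of all genes were likewise on in every JJ012 array and off in every C28 array. LTB, the membrane anchor of lymphotoxin, was detected on the C28 arrays alone, as were 7.02% of all genes, and was at least 1.48-fold lower (adjusted p = 5.94e-05). It was without a call when background correction was left out (−0.75), and its other probe was not detected on any array.

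CD70, the ligand of CD27, fell to 8.66 ± 0.08 in JJ012, against 10.28 ± 0.18 in C28 (SD, n = 3 each), a difference of −1.62 (adjusted p = 8.66e-06). TNFSF13B, the B-cell factor BAFF, had a difference of 0.82, TNFSF15 0.38, TNFSF14 0.37, TNFSF12 −0.30 and LTA −0.07, none of them called. The TWEAK ligand gene TNFSF12 and its receptor gene TNFRSF12A were thus both detected in both lines.

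Some ligand genes that lie side by side were called in opposite directions. TNFSF9, TNF and LTB each passed detection only through the line in which they read higher. On chromosome 19 TNFSF9 at 2.16, CD70 at −1.62 and TNFSF14 at 0.37 follow each other, and of 5 measured flanking genes 1 was called, TUBB4A at −1.97. On chromosome 6 LTA at −0.07, TNF, off in C28, and LTB, off in JJ012, follow each other. Of 6 measured flanking genes 1 was called, MICB at −3.57, with 2 of 3 JJ012 arrays detecting it. On chromosome 12 TNFRSF1A at 0.29 and LTBR at 1.12 stand on either side of SCNN1A, which was off in C28 and called higher in JJ012. Of 5 measured genes outside that stretch 1 was called, CD9, lower at −3.91 with 1 of 3 JJ012 arrays detecting it. Beside TNFRSF19 4 flanking genes were measured and 2 were called lower, MIPEP at −1.01 and PARP4 at −1.04. Beside TNFRSF9 9 were measured and 3 were called higher, ERRFI1 at 2.65, PER3 at 1.74 and UTS2, which was off in C28. PER3 was detected on 1 of 3 C28 arrays. Beside TNFRSF1B 6 were measured and 2 were called lower, NPPB at −3.72, with 1 of 3 JJ012 arrays detecting it, and DHRS3 at −3.01. Beside TNFRSF12A 5 were measured and 1 was called, MMP25, lower at −1.49 with 1 of 3 JJ012 arrays detecting it. Beside TNFRSF21 2 were measured and none was called. Over all genes 31.3% were called in either direction. Flanking genes were named after their values were seen.

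**Figure D3:**
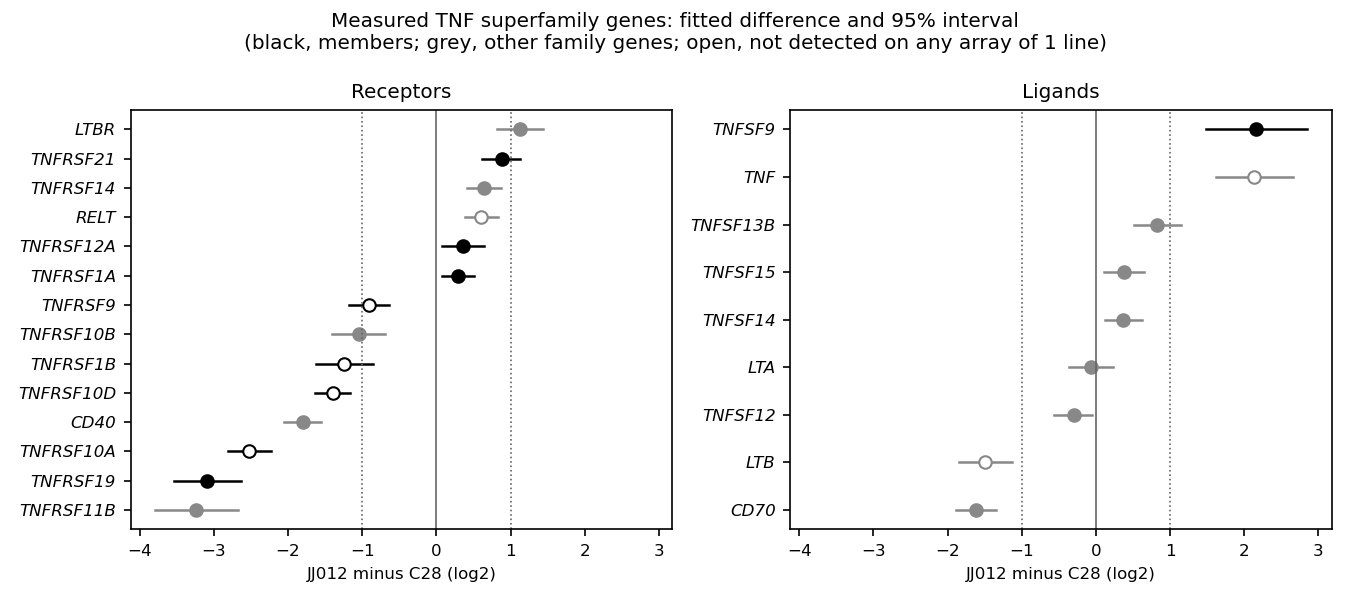
Fitted difference of JJ012 minus C28 (log2) with its 95% interval for the 23 measured superfamily genes, receptors on the left and ligands on the right. Black marks members, grey the other genes, and open points genes that no array of 1 line detected. TNFSF9 at 2.16 lies highest among the filled points, TNF is an open point because no C28 array detected it, and TNFRSF11B at −3.24 and TNFRSF19 at −3.09 lie lowest.

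Genes of the proteins that carry the signal inside the cell were called about as often as genes in general. Of 34 signalling genes with a probe 29 were measured, and 4 were called higher, 5 lower and 20 not, which is 31% against 31.3% of all genes. Their median difference was 0.01. TRAF5, an adaptor of TRAF-binding receptors, read 5.81, 4.65 and 4.74 on the JJ012 arrays, against 9.13, 9.21 and 9.37 on the C28 arrays, a difference of −4.17 (SE 0.28, adjusted p = 6.33e-06). JJ012 replicate 1 alone detected it, at 6.80% of the C28 mean. The difference was −2.86 without background correction and −5.10 with the share of C28 signal subtracted. Without JJ012 replicate 1 TRAF5 was at least 11.8-fold lower. A second probe of TRAF5 was at least 4.78-fold lower, and the remaining TRAF5 probes were not detected on any array.

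EDARADD, the adaptor of the ectodysplasin receptor, fell by 1.69 on the log2 scale, and its other probes were not detected on any array. OTULIN and CYLD, deubiquitinases that restrain TNF signalling, had differences of −1.60 and −1.40 (adjusted p = 5.02e-06 and 3.01e-05). CYLD lost its call without background correction (−0.83), and its other probe was not detected on any array. Among the called rises were MAP3K5, a stress kinase downstream of TNF, at 1.78 (adjusted p = 0.000298), and BIRC2, a ubiquitin ligase of the receptor complex, at 1.75 (adjusted p = 4.55e-06). BID, which links death receptors to mitochondria, rose by 1.44 (adjusted p = 4.19e-05). RNF31, a subunit of the linear ubiquitin ligase, was at the limit with 1.01 and lost its call under 9 of 18 alternatives.

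Genes known to answer TNF differed in both directions. Of 31 with a probe 29 were measured, with 5 called higher, 13 lower and 11 not. The calls make 62.1%, against 31.3% of all genes, and the median difference was −0.84, or −0.67 with undetected genes at their bounds. Of the 29, 9 passed detection through C28 alone and 3 through JJ012 alone. Over the 17 detected on all 6 arrays, 2 were called higher and 5 lower, and 21.9% of all genes detected on all 6 arrays were called in either direction. The list was put together with earlier results of these data known, and its counts are a description.

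The chemokine gene CXCL1 read 7.57, 5.10 and 5.86 on the JJ012 arrays, against 10.99, 10.07 and 10.52 on the C28 arrays, a difference of −4.35 (SE 0.56, adjusted p = 0.000195). JJ012 replicate 2 did not detect it, with a detection value of 0.934, and over the alternatives the difference ran from −5.81 to −3.43. JJ012 replicate 1 read 11.5% of the C28 mean, and without it the difference was −5.04. PLAU, the urokinase gene, had −4.33, the chemokine gene CCL2 −4.05 and the collagenase gene MMP1 −3.49. On JJ012 replicate 1 these read 10.2%, 7.97% and 16.1% of their C28 means. Without that array PLAU had −4.88 and MMP1 −3.95, and PLAU had −3.74 without JJ012 replicate 2. CCL2 was detected on 1 of 3 JJ012 arrays, replicate 1, and without it was at least 10.3-fold lower.

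MMP3, the stromelysin gene, was on in every JJ012 array, off in every C28 array and at least 21.7-fold higher in JJ012 (adjusted p = 2.21e-06). That bound rests on background-corrected signals, and the fitted difference was 3.51 without the correction and 4.94 with it. KLF6, an early-response transcription factor gene, rose to 12.41 ± 0.12 in JJ012, against 10.23 ± 0.07 in C28 (SD, n = 3 each), a difference of 2.19. The chemokine gene CCL20 was at least 2.89-fold and the adhesion gene ICAM1 at least 2.32-fold higher, both off on the C28 arrays, and ICAM1 lost its call without background correction (0.92).

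**Figure D4:**
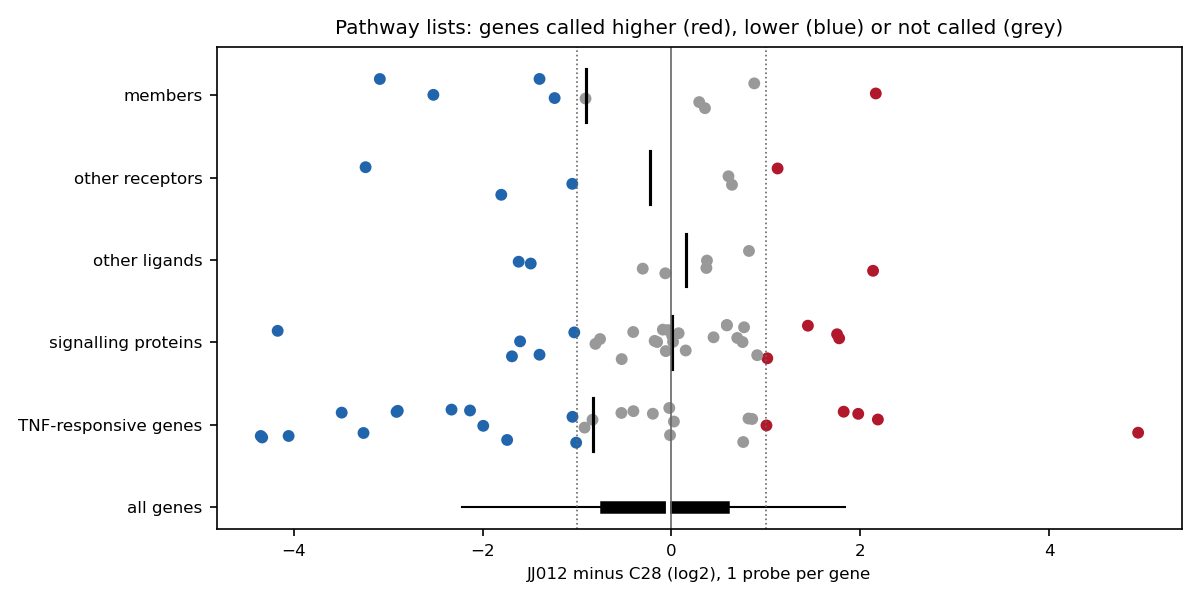
Difference of JJ012 minus C28 (log2) of each measured gene in the member list and 4 further lists, red for called higher, blue for called lower and grey for not called, with a black bar at each list's median. The lowest row shows all 11515 genes, with a thin line from the 5th to the 95th percentile, a thick line over the middle of the distribution (25th to 75th percentile) and a white mark at the median. The medians are −0.91 for members, 0.01 for signalling proteins and −0.84 for TNF-responsive genes.

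The members' directions held under every alternative run, while sizes near background did not. Over 17 or 18 alternatives for each measured member no difference changed sign. The alternatives all drew on these same 6 arrays, so a kept sign is no independent test. Of the 9 members, 5 passed detection through C28 alone and 1 through JJ012 alone, a route that favours the direction they showed. TNFRSF10A, TNFRSF19 and TNFSF9 kept their calls in all 17 that gave a value. TNFRSF1B and TNFRSF10D each lost the call in 2, without background correction and with the authors' normalized values.

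**Figure D5:**
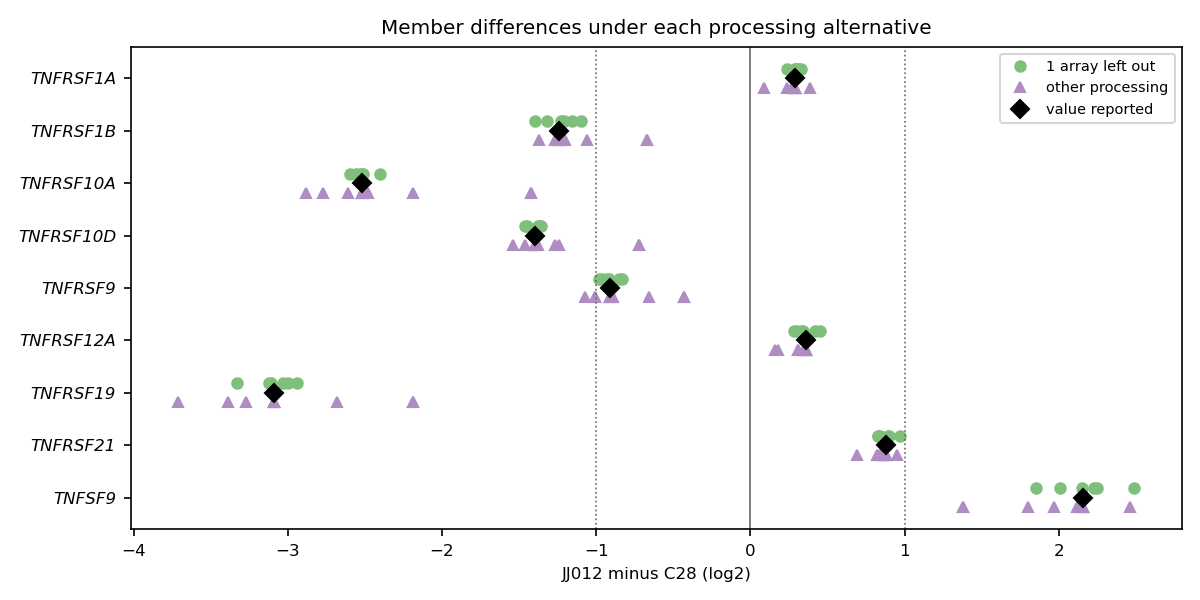
Difference of JJ012 minus C28 (log2) of the 9 measured members as reported (black diamonds), with 1 array left out (green circles, drawn above) and under other processing (purple triangles, drawn below), with dotted lines at 2-fold. Leaving out arrays moved TNFSF9 between 1.85 and 2.49, while the triangles nearest 0 for TNFRSF10A at −1.42 and TNFRSF19 at −2.19 come from leaving out background correction and from the authors' normalized values.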

How the data were processed

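The authors deposited a mean intensity per probe and array in linear units that were neither background-subtracted nor scaled, and a detection fraction that is 1 for bright probes and was read as 1 minus the detection p. The authors also deposited log2 values centred per probe on the median of the 6 arrays, whose scale and direction were found from intensity differences (slope 0.995 over 7397 probes). The array medians there were −0.003, 0.004 and 0.003 for JJ012 and −0.001, −0.001 and 0 for C28, and the normalization between arrays stays unknown. The sources used here name no scanner software.

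Intensities were corrected and quantile-normalized with neqc (offset 16, negative controls inferred from detection values) in limma 3.58.1 under R 4.3.3. All 19384 measured probes were fitted together with lmFit and eBayes, two-sided, and a gene was read from its brightest probe. The alternatives changed the background correction, scaling, filter, probe rule, block and arrays used. Symbols came from the platform annotation, updated through Entrez identifiers to RefSeq (30074 of 30113 matched). The files name no genome build, so RefSeq gave gene order and promoters only. Named genes were all members, all measured superfamily genes and up to 4 called genes in each direction of each further list. A rule for genes most like a called member detected on all 6 arrays named none. Some further genes of these lists were not analysed here. Members and lists were chosen with earlier results of these data known.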

Additional observations from a re-analysis of the deposited data

How the results depend on the processing

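The labels' replicate numbers did not pair the arrays (correlation of same-numbered deviations −0.04, −0.07 and 0.05), and the fit with the replicate number as a block gave 1574 higher and 2025 lower genes, 1 member higher and 4 lower, and changed no call counted here. Leaving out 1 array at a time gave 1 member higher and 4 lower each time, 1541 to 1620 genes higher and 1995 to 2078 lower. Without background correction, and likewise with the authors' normalized values, 2 member genes and 2 member probes were lower, as were 1 other ligand and 3 signalling genes, and 3 TNF-responsive genes were higher. Without background correction the differences of weak signals shrink by construction. Whether the same holds for the authors' values was not tested. Over probes detected on all 6 arrays, 1014 genes were higher and 1043 lower, 0 member genes or probes were called in either direction by limma (3 had an unadjusted p under 0.05), other ligands gave 0 higher and 1 lower, signalling genes 3 lower and TNF-responsive genes 2 higher and 5 lower, with fewer genes tested. With no minimum fold, 3925 genes were higher and 4356 lower. Higher were then 4 member genes and 4 member probes, 3 other receptors, 4 other ligands, 11 signalling genes and 8 TNF-responsive genes. Lower were 5 member genes and 5 member probes, 3 other receptors, 3 other ligands, 9 signalling genes and 17 TNF-responsive genes. With median scaling no other receptor was called higher (0), and lower genes made up 67% of calls against 56.3%. With replicate 2 standing alone for JJ012, chosen after seeing the data, 2 other ligands were higher. Leaving out arrays gave 2 to 3 other receptors lower, 3 to 5 signalling genes higher and 4 to 5 lower, 4 to 5 TNF-responsive genes higher and 12 to 13 lower, and −0.15 to 0.06 for LTA, whose sign turned without JJ012 replicate 2 (the cause was not tested). Signal over background limits TNFRSF1B, TNFRSF9, TNFRSF10A, TNFRSF10D and TNFSF10. It also limits the sizes of TNFSF9, with a mean of 5.79 in C28, and TNFRSF19, with a mean of 5.84 in JJ012. TNFSF9 was not detected on C28 replicate 2, nor TNFRSF19 on JJ012 replicate 2.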

Other observations

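Markers of other cell types were mostly off. Of 6 leukocyte markers with a probe, CD14 and CSF1R were measured while PTPRC, CD3E, ITGAM and LYZ were not detected on any array. CSF1R read 7.36 in JJ012, against 4.85 in C28, and CD14 read 6.66 in JJ012, against 9.38 in C28 (mean log2 signal, n = 3 each). Of 5 endothelial markers only PECAM1 was measured, detected on the JJ012 arrays alone, and of 5 epithelial markers only EPCAM, detected on all C28 arrays. Summed linear signals ran from 309 to 346 in JJ012 and from 723 to 930 in C28 for the leukocyte list, from 107 to 151 in JJ012 and from 53.4 to 72.7 in C28 for the endothelial list, and from 90.7 to 120 in JJ012 and from 305 to 359 in C28 for the epithelial list. The part of these genes in the members' differences was not tested.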
